A study of Homo sapiens with 6 samples.

Results

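The alpha and beta tubulin genes encode the subunits of microtubules, and 10 isotype genes of the 58288 genes counted in T24 cells are described here. They were chosen by name as isotypes whose mRNAs free tubulin is known to regulate. The rule used no measured value, but earlier results of these data were known when it was set. They comprise 4 alpha isotypes (TUBA1A, TUBA1B, TUBA1C and TUBA4A) and 6 beta isotypes (TUBB, TUBB2A, TUBB2B, TUBB3, TUBB4B and TUBB6), and all 10 passed the filter on low counts. T24 is an established human bladder cancer cell line. The cells were transfected with a control siRNA (siControl in the labels, NC here) or with one of a pair of siRNAs, si-circ235-1 and si-circ235-2, aimed at different target sites of circ_0000235 (circ235), a circular RNA. Each condition had 2 libraries labelled as biological replicates, and nothing further says how separate their cultures were, so the tests measure the spread between those libraries. The study sequenced polyadenylated RNA to find genes that act downstream of circ235. The counts hold no value for circ235 itself, so its knockdown was not checked here.

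Alpha and beta tubulin form a heterodimer that polymerises into microtubules. The folding of new chains needs the chaperonin CCT, its partner prefoldin and a set of dedicated folding cofactors. Cells also adjust tubulin mRNA to the amount of unpolymerised tubulin: when free dimers are plentiful, TTC5 binds the first residues of the nascent tubulin chain at the ribosome, SCAPER is recruited, and the CCR4-NOT deadenylase, docked through CNOT11, degrades the mRNA. The isotypes differ mostly in their acidic C-terminal tails, and tissues express them in different mixtures. TUBB3 is best known from neurons, TUBA1B, TUBA1C, TUBB and TUBB4B are widely expressed, and TUBB6 is prominent in several non-neuronal cell types.

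The start of each coding sequence is shown because it is the element on which autoregulation acts. The first 30 bases of the spliced coding sequence were read from GENCODE 29 (GRCh38), with the first 4 codons, which encode the residues that TTC5 recognises, in capitals.
TUBA1A: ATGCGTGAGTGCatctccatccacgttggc
TUBA1B: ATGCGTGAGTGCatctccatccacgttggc
TUBA1C: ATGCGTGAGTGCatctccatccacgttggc
TUBA4A: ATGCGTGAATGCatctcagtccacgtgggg
TUBB: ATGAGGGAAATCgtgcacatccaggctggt
TUBB2A: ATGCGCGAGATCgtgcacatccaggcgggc
TUBB2B: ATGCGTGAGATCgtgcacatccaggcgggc
TUBB3: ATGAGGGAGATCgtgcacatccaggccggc
TUBB4B: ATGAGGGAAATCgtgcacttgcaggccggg
TUBB6: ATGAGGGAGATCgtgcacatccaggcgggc
TUBA1A, TUBA1B and TUBA1C carried the same 30 bases, and TUBA4A encoded the same 4 residues with another glutamate codon. All 6 beta isotypes encoded a second, shared set of 4 residues. Of 19545 genes with an annotated coding start, 9 (0.046%) encoded the 4 alpha residues and 10 (0.0512%) the 4 beta residues. At the level of these residues the isotypes of a family do not differ.

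The other end of the coding sequence shows how isotypes differ. The last 9 codons and the stop codon of a few isotypes are printed with codons for the acidic residues, glutamate and aspartate, in capitals.
TUBA4A: tatGAGGACGAGGATGAGggaGAAGAAtaa
TUBB: ttcggtGAGGAGgccGAAGAGGAGgcctaa
TUBB2A: GAGGAGGAGGAGggcGAGGACGAGgcttaa
TUBB3: GAGGAGtcgGAGgcccagggccccaagtga
TUBB4B: GAGGAGGAGgctGAGGAGGAGgtggcctag
TUBB6: GAGGATGAGGAAGAGGAGatcGATggatag
Every isotype had 10 to 12 acidic codons among its last 20. TUBA4A ends on a glutamate codon, without the terminal tyrosine that vasohibins remove from other alpha tubulins and that tubulin tyrosine ligase restores. TUBB3 ends on a basic lysine codon (aag), outside the acidic run.

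Some of these genes are close copies, which matters for counting reads. TUBA1A, TUBA1B and TUBA1C lie together on chr12 and were 95.9 to 97.2% identical over the coding sequence. TUBB2A and TUBB2B, neighbours on chr6, were 98.2% identical. Alpha and beta isotypes were 53 to 55% identical. Of all 75-base stretches in the longest coding transcript, 60.4% of those in TUBB2A and 49.5% of those in TUBB2B also occurred in a gene elsewhere, mostly in each other. For TUBA1B that share was 48.4%, for TUBB4B 5.37%, and for TUBA4A and TUBB6 it was 0. Sequencing kept no strand information, so reads over exons shared with an overlapping gene cannot be told apart by strand either.

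The 6 libraries held 15373992 to 19912893 counts, and in each condition the replicates differed by far more than counting noise (chi-square per degree of freedom 23.9 to 36.7). KRT7, KRT8, KRT18, VIM and CD44 were all at 499 CPM (the per-million count of a library, after TMM scaling) or more in every library. KRT19 and CDH1 stayed at or below 0.287 CPM, and the uroplakin UPK3A, a marker of differentiated urothelium, was at 0. Of the leukocyte markers PTPRC and CD3E were at 0 in every library, but the summed level of the list was 10.7 to 11.2 CPM under si-circ235-1 against 2.01 to 3.21 CPM elsewhere, nearly all from CD14; its part in the results was not tested. Fold changes under si-circ235-2 moved with transcript length over all genes. The median log2 fold change against NC was -0.71 for the 1297 genes with a longest transcript under 1 kb, -0.53 for the 2586 genes of 1 to 2 kb and 0.42 for the 5185 genes over 4 kb. Under si-circ235-1 the medians of the length classes lay between -0.10 and 0.03. Bulk counts cannot separate fewer cells making an mRNA from less of it in each cell.

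One beta gene supplied most of the beta tubulin mRNA in these cells. TUBB4B (chr9:137241213-137243707, plus strand, GRCh38) was at 2186 and 1870 CPM in the NC libraries, and per kb of its transcript it led the isotypes in every condition, at 1239 ± 136 CPM per kb in NC (SD, n = 2). TUBB6 (chr18:12307669-12344320, plus strand) came next at 178 ± 24.8 CPM per kb, followed by TUBA1C (chr12:49188736-49274603, plus strand) at 135 ± 20.3 and TUBA1B (chr12:49127782-49131397, minus strand) at 128 ± 15.6. TUBA1C and TUBA1B did not differ beyond their spread by this length. With the union of all exons as the length, their NC means were further apart, at 87.3 and 58.5 CPM per kb. TUBA1A (chr12:49184796-49189324, minus strand) was at 88.8 ± 3.23 CPM per kb. TUBA4A (chr2:219249711-219278170, minus strand) at 32.7 ± 2.80, TUBB2A (chr6:3153669-3157526, minus strand) at 26.4 ± 4.83 and TUBB (chr6:30720201-30725426, plus strand) at 23.8 ± 3.30 CPM per kb were close to one another, and the order of these last 3 changed when the union of all exons was taken as the length. The lowest were TUBB2B (chr6:3224261-3231730, minus strand) at 2.53 ± 0.459 and the neuronal isotype TUBB3 (chr16:89921392-89938761, plus strand) at 1.78 ± 0.363 CPM per kb. Exons of TUBB3 overlap those of AC092143.1 on the same strand over 1584 bases, and 79.4% of its 75-base stretches occur in that gene. AC092143.1 had 0 counts in every library. Whether reads shared by the pair were left uncounted was not tested, so the TUBB3 level may be too low.

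As a share of the summed CPM per kb of the 6 beta isotypes described here, TUBB4B made up 84.2 ± 0.0467% in NC. With si-circ235-1 it made up 87.9 ± 0.377%, and 78.9 ± 0.403% with si-circ235-2 (SD, n = 2 each). TUBB6 took 12.1 ± 0.348%, 8.79 ± 0.807% and 15.6 ± 0.108% in the same order. TUBB took 1.64 ± 0.405% of the NC pool of beta mRNA, 1.04 ± 0.346% with si-circ235-1 and 3.95 ± 0.311% with si-circ235-2. Hence the libraries of the 3 conditions did not overlap in the TUBB4B or TUBB6 share, with si-circ235-1 and si-circ235-2 on opposite sides of NC for each. The alpha pool was more even. TUBA1B held 33.3 ± 1.47% of it in NC, but 16.0 ± 4.12% with si-circ235-1 and 29.1 ± 1.41% with si-circ235-2. TUBA1C held 34.9 ± 2.56%, 40.4 ± 4.65% and 44.8 ± 0.610%, and TUBA1A 23.2 ± 2.64%, 31.9 ± 5.28% and 20.8 ± 0.641%. These shares were not tested.

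**Figure D1:**
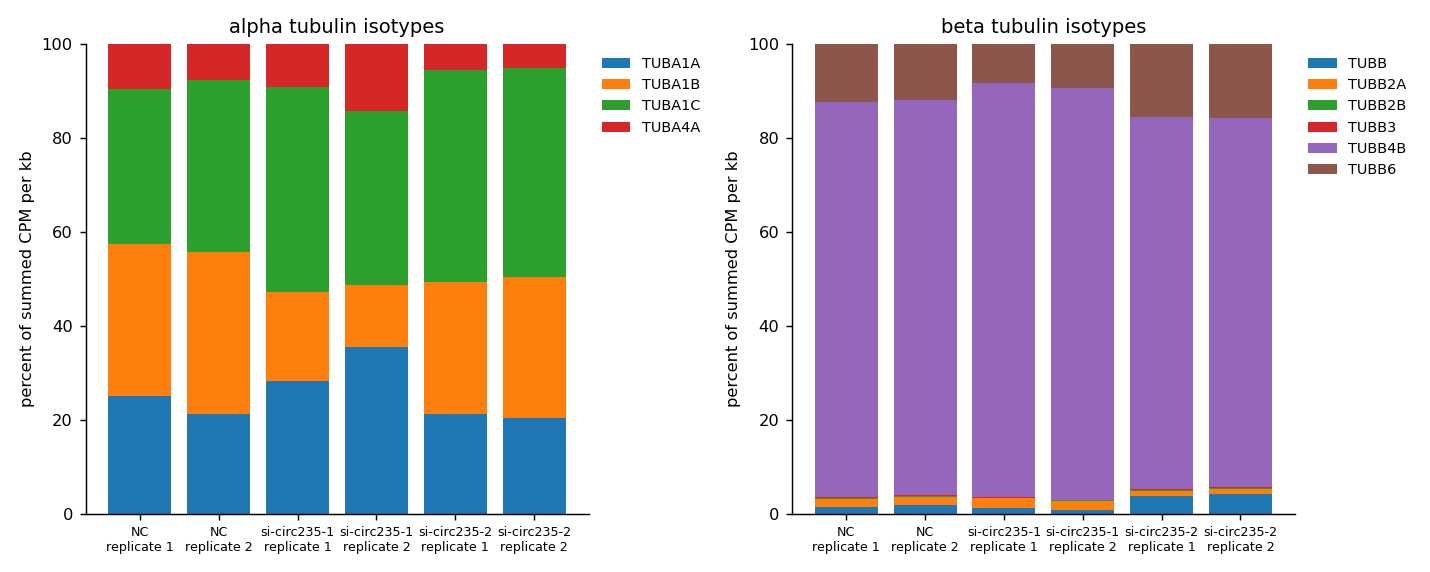
Share of each isotype in the summed alpha (left) or beta (right) tubulin CPM per kb of transcript, in percent, with 1 stacked bar for each of the 6 libraries. TUBB4B fills 78.6 to 88.2% of the beta bars, and the TUBA1B segment is smallest in the si-circ235-1 libraries, at 13.1 and 19.0%.

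The summed level of the 4 alpha isotypes was 813 and 917 CPM in NC, 1072 and 721 CPM with si-circ235-1 and 1088 and 930 CPM with si-circ235-2. For the 6 beta isotypes it was 2708 and 2322 CPM in NC, 2311 and 1745 CPM with si-circ235-1 and 1841 and 1531 CPM with si-circ235-2. The beta sum was below both NC libraries in all 4 knockdown libraries, though by little in the first with si-circ235-1, and the alpha sums spanned the NC values with si-circ235-1 and lay above them with si-circ235-2. These sums were not tested. The ratio of beta to alpha counts was 3.33 and 2.53 in NC, 2.15 and 2.42 with si-circ235-1, and 1.69 and 1.65 with si-circ235-2. Leaving out TUBB4B, the beta sums were 522 and 452 CPM in NC, 335 and 261 CPM with si-circ235-1 and 479 and 410 CPM with si-circ235-2.

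**Figure D2:**
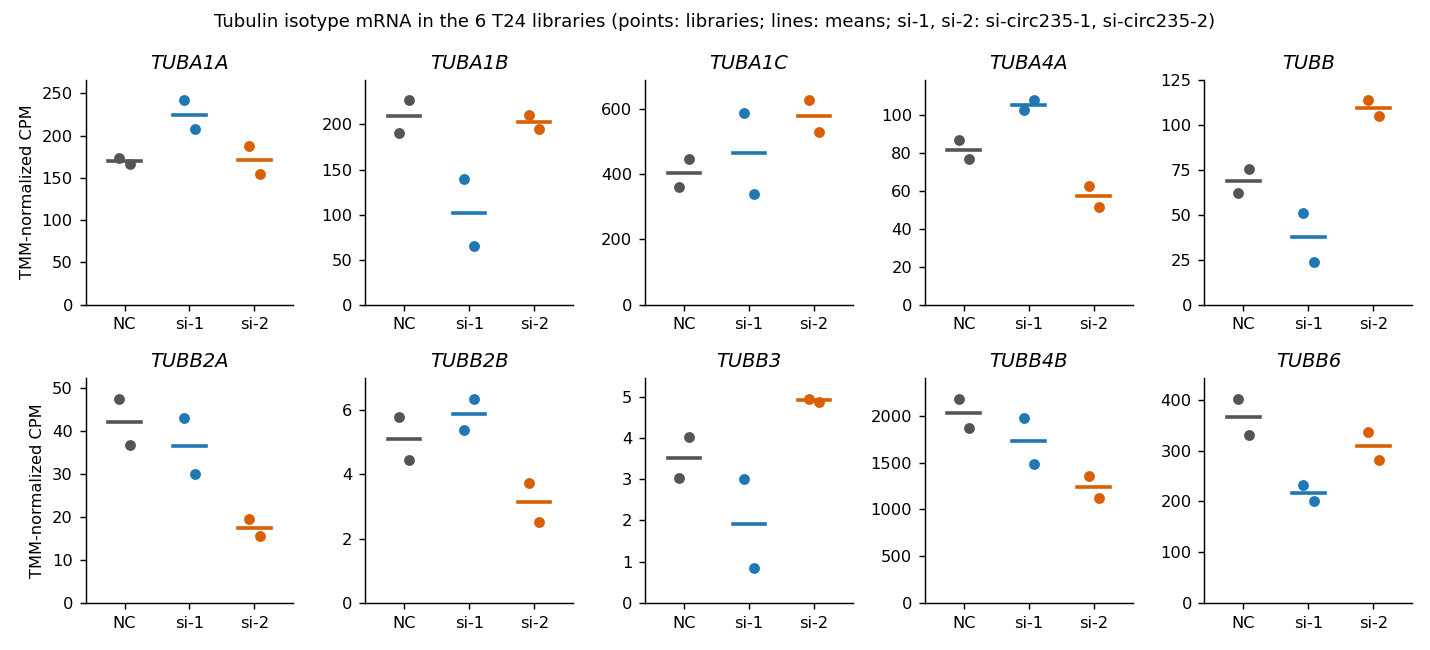
TMM-normalized CPM of each isotype (vertical axis, starting at 0, scaled for each gene) in NC, si-circ235-1 (si-1) and si-circ235-2 (si-2). Points are libraries and lines are means of 2; TUBA1B and TUBB are lowest with si-circ235-1, and TUBB2A and TUBB4B with si-circ235-2.

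With si-circ235-1, no isotype passed the test against NC (edgeR quasi-likelihood test, Benjamini-Hochberg adjustment over 14415 genes, threshold 0.05), where 5.88% of all genes were called (2.24% higher, 3.64% lower). At an unadjusted p under 0.05 there were 3 isotypes, TUBA1B, TUBB and TUBB6, and DESeq2 called these 3. The lowest adjusted p belonged to TUBB6. It was at 403 and 331 CPM in NC and at 232 and 200 CPM with si-circ235-1, without overlap, a log2 fold change of -0.77 (SE 0.20, adjusted p = 0.0503). This value passed the threshold in 8 of 14 alternative analyses, in which it ranged from -0.88 to -0.44.

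TUBA1B, a major alpha isotype of dividing cells, was at 191 and 227 CPM in NC and at 139 and 65.3 CPM with si-circ235-1. Both knockdown libraries were below both NC libraries, but they differed from each other by more than the NC libraries did, and the log2 fold change was -1.04 (SE 0.29, adjusted p = 0.0625). Without the second si-circ235-1 library it was -0.59, and without the first -1.68, which passed the test (adjusted p = 0.0287, within a range of 0.000176 to 0.320 over the alternatives). TUBB, the widely expressed class I beta isotype, went with it: 62.2 and 75.7 CPM in NC, and 51.1 and 23.9 CPM with si-circ235-1 (log2 fold change -0.88, SE 0.30, adjusted p = 0.0975). TUBB3 was counted only 15 to 102 times a library. Its level was 3.02 and 4.03 CPM in NC and 3.01 and 0.837 CPM with si-circ235-1 (log2 fold change -0.91, SE 0.49, adjusted p = 0.279).

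TUBA1A and TUBA4A lay on the other side of NC. TUBA1A, a main alpha isotype of the developing brain, was at 174 and 166 CPM in NC and 242 and 208 CPM with si-circ235-1 (log2 fold change 0.40, SE 0.19, adjusted p = 0.207). TUBA4A was at 86.7 and 76.8 CPM in NC and 103 and 108 CPM with si-circ235-1 (log2 fold change 0.37, SE 0.18, adjusted p = 0.235). Neither passed the test, although both passed, at 0.53 and 0.71, after correction of each library for the length and GC content of transcripts. The remaining isotypes overlapped NC: TUBA1C, TUBB2A, TUBB2B and TUBB4B had log2 fold changes between -0.23 and 0.20. In all, 6 of 10 isotypes did not overlap between si-circ235-1 and NC, against 55.0% of all genes, and their median log2 fold change was -0.22 beside -0.03 for all genes.

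With si-circ235-2, 2 of 10 isotypes fell against NC and 0 rose, beside 31.4% of all genes (15.7% in each direction). The isotypes were therefore not called more often than other genes. TUBB2A went from 47.6 and 36.7 CPM in NC to 19.5 and 15.6 CPM, with no overlap (log2 fold change -1.27, SE 0.25, adjusted p = 0.00490). It is a beta isotype known chiefly from the brain, and its near copy TUBB2B, at 5.77 and 4.46 CPM in NC, was at 3.72 and 2.53 CPM here (log2 fold change -0.72, SE 0.32, adjusted p = 0.110). Since reads of the pair can be assigned to either gene, their counts were also summed. The sum fell by 1.19 on the log2 scale (SE 0.24, adjusted p = 0.00502). The TUBB2A call was kept in 12 of 13 alternatives and was lost without the first NC library (-1.07, adjusted p = 0.0627, the highest over the alternatives, whose lowest was 8.84e-06).

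TUBB4B, the main beta isotype of these cells, went from 2186 and 1870 CPM in NC to 1362 and 1121 CPM with si-circ235-2 (log2 fold change -0.71, SE 0.24, adjusted p = 0.0481). The libraries did not overlap. The call lay at the threshold and held in only 5 of 14 alternatives, and after the length and GC correction the value was -0.16 (adjusted p = 0.444, the highest over the alternatives, whose lowest was 0.00601). Both TUBB4B, with a transcript of 1637 bases, and TUBB2A, with 1595 bases, belong to the length class whose median was -0.53, in which 34.7% of genes were called lower. After that correction TUBB2A still fell, by 0.70 on the log2 scale (adjusted p = 0.0144).

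The other isotypes did not pass the test with si-circ235-2. TUBA4A was at 62.8 and 51.8 CPM, below both NC libraries (log2 fold change -0.51, SE 0.18, adjusted p = 0.0541). TUBB was at 114 and 105 CPM, above both NC libraries (log2 fold change 0.67, SE 0.29, adjusted p = 0.104), and passed in 5 of 14 alternatives. TUBA1C, the most abundant alpha isotype per kb here, was at 627 and 529 CPM beside 361 and 447 CPM in NC, again without overlap (log2 fold change 0.52, SE 0.26, adjusted p = 0.160). For TUBA1A, at 188 and 155 CPM, TUBA1B, at 211 and 195 CPM, and TUBB6, at 337 and 282 CPM, the values overlapped NC, with log2 fold changes of 0.01, -0.04 and -0.25. The 2 libraries of TUBB3 were at 4.96 and 4.88 CPM (log2 fold change 0.48, SE 0.46, adjusted p = 0.455). In all 7 of 10 isotypes did not overlap NC, against 71.4% of all genes, and the median log2 fold change was -0.15 beside 0.00 for all genes.

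**Figure D3:**
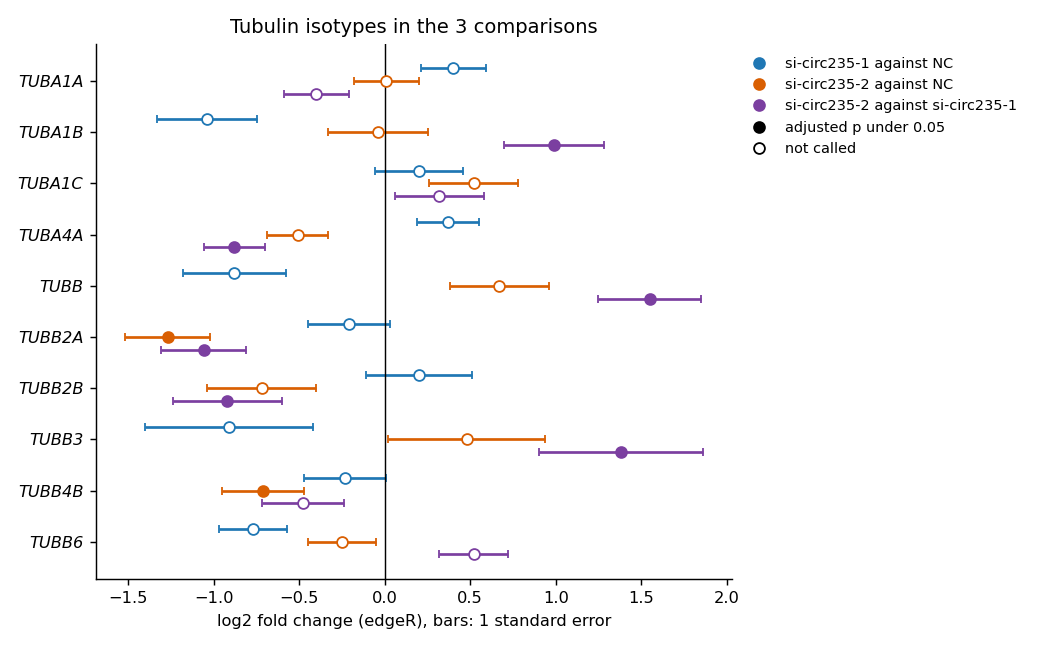
edgeR log2 fold changes (horizontal axis, bars of 1 SE) of the 10 isotypes for si-circ235-1 against NC, si-circ235-2 against NC and si-circ235-2 against si-circ235-1. Filled points have an adjusted p under 0.05: 0, 2 and 6 isotypes in that order.

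The difference between the siRNAs was tested directly, since both comparisons above share the NC libraries. Here 6 of 10 isotypes passed, 3 higher and 3 lower with si-circ235-2, beside 39.7% of all genes (21.1% higher, 18.6% lower). For 9 of 10 the libraries did not overlap, against 72.1% of all genes, and the median was -0.04 beside 0.04. TUBB differed most: 51.1 and 23.9 CPM with si-circ235-1, and 114 and 105 CPM with si-circ235-2, with NC between them. The log2 difference was 1.55 (SE 0.30, adjusted p = 0.00270), and it passed in all 14 alternatives run. TUBB3 was higher by 1.38 on the log2 scale (SE 0.48, adjusted p = 0.0408) and TUBA1B by 0.99 (SE 0.29, adjusted p = 0.0206). The TUBB3 call held in 9 of 14 alternatives and the TUBA1B call in 12 of 13. Both were lost without the second si-circ235-1 library, where they were 0.70 (adjusted p = 0.210) and 0.54 (adjusted p = 0.136). Over all alternatives their lowest adjusted p values were 0.00151 and 6.95e-05.

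TUBA4A was lower with si-circ235-2 than with si-circ235-1 by the log2 value of -0.88 (SE 0.18, adjusted p = 0.00394), again in all 14 alternatives. Its exons overlap those of the kinase gene STK16 on the opposite strand over 627 bases, and STK16 was lower too (log2 difference -0.66, SE 0.23, adjusted p = 0.0390); the part of shared reads was not tested. TUBB2A was lower at -1.06 (SE 0.25, adjusted p = 0.00701), which was lost without the first si-circ235-1 library (-0.77, adjusted p = 0.0637, with 0.000216 the lowest over the alternatives). TUBB2B, with 53 to 114 counts a library, was lower at -0.92 (SE 0.32, adjusted p = 0.0398) and passed in 7 of 13 alternatives, with the smallest difference, -0.59, without TMM factors. Summed with TUBB2A, the pair was lower at -1.04 (SE 0.24, adjusted p = 0.00601). TUBB6 was at 0.52 (SE 0.20, adjusted p = 0.0612), and the overlapping gene AFG3L2, on the opposite strand over 837 bases, was higher at 1.59 (SE 0.33, adjusted p = 0.00366). TUBB4B was at -0.48 (SE 0.24, adjusted p = 0.141), TUBA1A at -0.40 and TUBA1C at 0.32.

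When TUBA1A, TUBA1B and TUBA1C were counted as a single feature, nothing passed in any comparison. The sum stood at 727 and 840 CPM in NC, 969 and 614 CPM with si-circ235-1, and 1025 and 878 CPM with si-circ235-2. Its log2 fold change was 0.02 (SE 0.25, adjusted p = 0.980) for si-circ235-1 against NC and 0.28 (SE 0.25, adjusted p = 0.423) for si-circ235-2 against NC. The si-circ235-1 sums lay further apart than the change in mean TUBA1B, from 209 CPM in NC to 102 CPM. For that reason the sum cannot show whether the lower TUBA1B values had a counterpart in the near copies together. The second si-circ235-1 library had the lowest sum, at 614 CPM, and the lowest TUBA1B, at 65.3 CPM. Of the 75-base stretches of TUBA1B, 26.2% occur in TUBA1A, and 66.6% occur in the overlapping antisense gene AC011603.2. That gene was itself counted only 4 to 28 times a library.

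Across the 6 libraries, the levels of TUBB and TUBB3 had a Pearson r of 0.971, TUBA1B and TUBB3 one of 0.954 and TUBA1B and TUBB one of 0.918 (log2 CPM). TUBB2A and TUBB4B had an r of 0.977, and TUBA4A and TUBB one of -0.879. These describe 6 libraries in 3 conditions that share depth and scaling. The genes most like TUBB by the same measure were SEMA4C (r = 0.999), CDK2AP1 (0.999), INPPL1 (0.998), LINC01772 (0.998) and RAVER1 (0.998), among 45 of 14405 genes with r above 0.99. For TUBA1B they were USP2 (0.996), WDR6 (0.995), CACNG7 (0.995), RRS1 (0.995) and TMCO6 (0.994), among 10 such genes.

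The rest of the tubulin family was mostly silent. Of 12 other tubulin genes, 5 were tested: the beta isotype TUBB4A, the gamma tubulins TUBG1 and TUBG2, and TUBD1 and TUBE1. TUBA3C and TUBA3E had no counts in any library. TUBG1, which encodes the gamma tubulin that nucleates microtubules at centrosomes, was at 203 and 173 CPM in NC, 192 and 157 CPM with si-circ235-1 and 111 and 91.7 CPM with si-circ235-2. It fell only in the last condition (log2 fold change against NC -0.90, adjusted p = 0.00757), and the siRNAs differed by -0.79 (adjusted p = 0.00979). TUBG2 fell by 0.63 on the log2 scale with si-circ235-2 (adjusted p = 0.0431), but this call held in only 4 of 14 alternatives, and after the correction the value was -0.14 (adjusted p = 0.525). TUBB4A was at 8.27 and 13.0 CPM in NC, 10.1 and 1.45 CPM with si-circ235-1 and 18.5 and 19.1 CPM with si-circ235-2, higher with the second siRNA than with the first (log2 difference 1.73, adjusted p = 0.0404).

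Of 15 chaperonin and prefoldin genes, 6 fell and 0 rose with si-circ235-2 against NC, beside 15.7% of all genes called lower. Among genes of 1 to 2 kb 34.7% were called lower, and 18.4% of those of 2 to 3 kb. The median log2 fold change of the list was -0.46, beside 0.00 for all genes. With si-circ235-1, 1 fell and the median was 0.22. The prefoldin subunit gene PFDN6 was at 70.9 and 27.6 CPM in NC, 15.2 and 10.2 CPM with si-circ235-1 and 9.20 and 7.27 CPM with si-circ235-2. It fell with both siRNAs (log2 fold changes -1.95, adjusted p = 0.0213, and -2.58, adjusted p = 0.00261), although the NC libraries themselves were far apart. The call for si-circ235-1 was lost when the first NC library or either si-circ235-1 library was left out. PFDN5, another subunit, went from 410 and 266 CPM to 142 and 113 CPM with si-circ235-2 (-1.41, adjusted p = 0.00362) and was at 359 and 468 CPM with si-circ235-1. PDCL3, a phosducin-like partner of CCT, fell by 0.77 with si-circ235-2 (adjusted p = 0.0178). With si-circ235-1 it was at 57.4 and 51.2 CPM, above NC at 37.3 and 30.2 CPM, without passing (0.69, adjusted p = 0.0701). The siRNAs differed in PDCL3 by -1.45 (adjusted p = 0.000846). Prefoldin subunits made up 4 of the 6 genes that fell, with PDCL3 and the chaperonin subunit CCT7.

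Among the tubulin folding cofactors, 9 genes with 7 tested, 3 fell and 1 rose with si-circ235-2, beside 31.4% of all genes called in either direction, and 0 were called with si-circ235-1. ARL2, the small GTPase that works with cofactor D on the dimer, was at 139 and 62.1 CPM in NC, 101 and 102 CPM with si-circ235-1, and 28.1 and 22.1 CPM with si-circ235-2 (log2 fold change -2.01, adjusted p = 0.00267). TBCB, which handles alpha tubulin, fell by 0.93 (adjusted p = 0.00723) and TBCA, which handles beta tubulin, by 0.80 (adjusted p = 0.0149). The tested cofactor genes had a median longest transcript of 2301 bases and the chaperonin and prefoldin genes one of 2005, beside 3088 for all genes. After the length and GC correction TBCB was at -0.33 and TBCA at 0.38, neither of them called, while ARL2 fell by 1.12 and PFDN5 by 1.09.

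Of the 13 genes of the autoregulation pathway, 3 rose and 0 fell with si-circ235-2, and 0 were called with si-circ235-1. Over all genes, 15.7% were called higher and 15.7% lower with si-circ235-2. Among genes over 4 kb, 31.4% were called higher. TTC5, the factor that binds nascent tubulin, was at 11.2 and 15.3 CPM in NC, 20.7 and 13.4 CPM with si-circ235-1 and 23.6 and 22.2 CPM with si-circ235-2 (log2 fold change 0.79 for the latter, adjusted p = 0.0472). SCAPER was at 5.44 and 4.16 CPM in NC, 9.23 and 7.82 CPM with si-circ235-1 and 7.14 and 8.80 CPM with si-circ235-2. Both conditions lay above NC, but neither passed (0.83, adjusted p = 0.0991, and 0.73, adjusted p = 0.0665). CNOT11, the docking subunit, had values of 66.3 and 78.7 CPM in NC, 63.9 and 57.7 CPM, and 101 and 87.5 CPM, and passed only between the siRNAs (0.63, adjusted p = 0.0199). CNOT1, the scaffold of the deadenylase, had the largest fold change of the list: it went from 37.0 and 73.8 CPM in NC to 267 and 327 CPM with si-circ235-2 (2.42, adjusted p = 0.00197), with 59.4 and 33.5 CPM under si-circ235-1. CNOT9 rose by 0.56 (adjusted p = 0.0319). The genes of this list had a median transcript of 4753 bases. After the correction TTC5 was at 0.35 and CNOT9 at -0.02, neither of them called, and CNOT1 was still higher at 1.65.

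Tubulin-modifying enzymes, 19 genes with 18 tested, had 3 rises and 0 falls with si-circ235-2, beside 15.7% of all genes called higher and 15.7% lower, and 0 were called with si-circ235-1. TTL, the ligase that restores the terminal tyrosine of alpha tubulin, was at 49.7 and 59.7 CPM in NC, 53.7 and 49.8 CPM with si-circ235-1 and 136 and 132 CPM with si-circ235-2 (log2 fold change 1.29, adjusted p = 0.00197). VASH1, which removes that tyrosine, rose too (1.23, adjusted p = 0.0339), at only 1.59 to 3.97 CPM, as did the polyglutamylase TTLL5 (1.12, adjusted p = 0.00883). The TTL call held in all 14 alternatives, that of TTLL5 in 12 and that of VASH1 in 8, and after the correction the values were 0.61, 0.48 and 0.97, with TTL alone called. SVBP, the partner of the vasohibins, was at -0.56 against NC (adjusted p = 0.167). Between the siRNAs, 7 genes of this list were higher with si-circ235-2, and SVBP was lower (-1.22, adjusted p = 0.00775), beside 21.1% of all genes higher and 18.6% lower.

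Of 20 genes for microtubule growth and stabilization 18 were tested, and 9 rose and 2 fell with si-circ235-2, beside 31.4% of all genes called in either direction. The median log2 fold change was 0.66 over a list whose median transcript is 5240 bases, beside 0.42 for all genes over 4 kb. MAP1B (1.45, adjusted p = 0.00439), CAMSAP1, which protects minus ends (1.16, adjusted p = 0.00435), and CKAP5, a microtubule polymerase (1.16, adjusted p = 0.00517), rose. The size of the MAP1B rise rested largely on 1 library: it was at 42.7 and 81.0 CPM, beside 41.8 and 39.6 CPM with si-circ235-1. Between the siRNAs MAP1B did not pass (0.61, adjusted p = 0.0952). MAP4, a stabilizing protein of non-neuronal cells, was at 232 and 214 CPM in NC, 147 and 125 CPM with si-circ235-1 and 375 and 358 CPM with si-circ235-2. It fell with the first siRNA (-0.71, adjusted p = 0.0479) and rose with the second (0.72, adjusted p = 0.0146), and the siRNAs differed by 1.43 (adjusted p = 0.000653). The fall with the first siRNA lay at the threshold and held in 9 of 14 alternatives (adjusted p up to 0.312). MAPRE1, the plus-end protein EB1, rose with both (0.80, adjusted p = 0.0378, and 0.61, adjusted p = 0.0336), from 204 and 237 CPM in NC to 404 and 367 CPM and to 360 and 312 CPM. Its call with the first siRNA also held in only 9 of 14 alternatives, over which the value ranged from 0.70 to 0.95. After the correction 3 genes of the list rose and 1 fell with si-circ235-2.

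Of 14 genes that destabilize or sever microtubules 12 were tested, and 2 fell and 1 rose with si-circ235-2, fewer than the 31.4% of all genes called in either direction. The fallers were stathmins, which hold free tubulin dimers: STMN1 was at 859 and 794 CPM in NC, 994 and 935 CPM with si-circ235-1 and 554 and 443 CPM with si-circ235-2 (log2 fold change -0.73, adjusted p = 0.0236), and STMN3 fell by 0.78 (adjusted p = 0.0189). KATNAL1, a katanin-like severing enzyme, rose by 0.71 (adjusted p = 0.0376). The STMN3 call held in 10 of 14 alternatives and that of KATNAL1 in 7, and both were lost after the correction, at -0.19 (adjusted p = 0.256) and 0.51 (adjusted p = 0.112). Many of these calls rested on the first NC library. Without it, 5.10% of all genes were called for si-circ235-2 against NC instead of 31.4%, and of the 23 calls against NC named for these lists 5 were kept. With the length and GC correction 12 of the 23 were kept, and 14 without the second si-circ235-2 library. For si-circ235-2 against NC, the calls of tubulin isotypes and of growth and stabilization genes were among those lost without the first NC library.

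**Figure D4:**
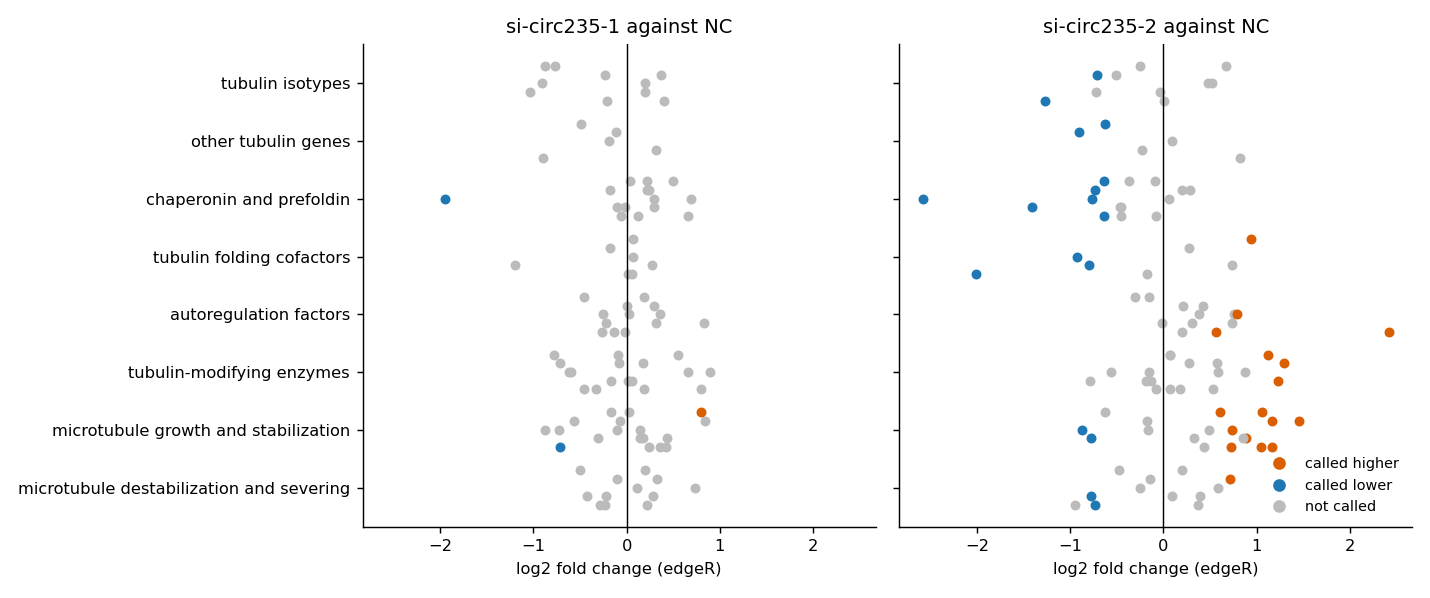
edgeR log2 fold change (horizontal axis) of every tested gene of the tubulin isotypes and of 7 lists of related genes, for si-circ235-1 against NC (left) and si-circ235-2 against NC (right). Each point is a gene, orange if called higher, blue if called lower and grey if not called; vertical offsets within a list carry no meaning.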

How the data were processed

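For each of the 6 libraries the authors deposited raw counts per gene, which are whole numbers and not scaled. Per the labels, RNA was enriched with oligo dT beads and the reads were aligned to hg38. The submitters' processing notes name FastQC, cutadapt and STAR, with no versions; which tool and annotation made the counts is not given in the sources used here. The deposited columns were matched to conditions by name, siRNA numbers to si-circ235 numbers included.

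Tests were run with edgeR 4.0.16 under R 4.3.3 (a minimum count of 10 in filterByExpr, TMM, 1 mean per condition over all 6 libraries, quasi-likelihood test, Benjamini-Hochberg adjustment over 14415 genes, threshold 0.05), after a test on simulated data, in which more than the nominal share of the calls was false, so calls near the threshold are less secure than their adjusted p. Symbols, positions, lengths and sequences came from GENCODE 29, in which 99.5% of the gene identifiers were found. CPM per kb used the longest coding transcript. The libraries held 15373992 to 19912893 counts; their number limits the precision more than depth, except for TUBB3 and TUBB2B. Circular RNA lacks a poly(A) tail and is not measured. Correlations were taken over log2 CPM (prior count 2).

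The members, by a rule that used no measured value, and the gene lists were chosen with earlier results of these data known. The lists were written from general knowledge of tubulin folding, decay, modification and microtubule dynamics. Named were all 10 isotypes, from each list the up to 3 genes of lowest p in each comparison against NC, among those called whose siRNA libraries both lay above or both below the NC libraries, TTC5, SCAPER and CNOT11 whatever their values, and the 5 genes most correlated with TUBA1B and with TUBB. CCT7, SVBP, TUBB4A, TUBA3C, TUBA3E, TUBD1, TUBE1 and the overlapping genes were named after their values were seen. Alternatives were DESeq2 1.42.0, no TMM factors, DESeq2 size factors, no filter, fits without the condition not compared, a block for the replicate number, omission of each library, near-identical genes summed, exon-union lengths, and a correction of each library for length and GC content of transcripts (splines, 5 degrees of freedom). No set test was run. Some marker genes and some coding sequence ends are not reported here.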

Additional observations from a re-analysis of the deposited data

Results flagged for a closer look

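The responses of 6 isotypes to the siRNAs differed by the direct edgeR test of si-circ235-2 against si-circ235-1 (adjusted p from 0.00270 to 0.0408). On the log2 scale TUBB was higher with si-circ235-2 by 1.55, TUBB3 by 1.38 and TUBA1B by 0.99. TUBB2A was at -1.06, TUBB2B at -0.92 and TUBA4A at -0.88, so these were lower with si-circ235-2. Since 39.7% of all genes tested also differed between the siRNAs, the isotypes share this with much of the transcriptome. TUBB2B and TUBB3 had few counts, and their calls and that of TUBA1B were lost without the second si-circ235-1 library.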

How the results depend on the processing

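Over the alternatives, 333 of 405 values of single isotypes kept their direction and side of the threshold. For si-circ235-1 against NC, where 0 isotypes were called, 3 were called by DESeq2, without the filter and in the fit of the compared conditions alone, 1 without TMM factors, 1 with the replicate block, 4 with the length and GC correction (2 higher, 2 lower) and 0 to 3 when a library was left out. For si-circ235-2 against NC, the 2 lower isotypes became 1 with the correction. Without TMM factors and in the fit of the compared conditions alone, 1 was higher and 1 lower. Without the filter 1 was higher and 2 were lower, and with the replicate block 3 were lower. Fewer were called in some fits that left out a library. With near-identical genes summed, 1 of the 5 isotypes outside the sums was called. The TUBB2A and TUBB2B sum passed as well (log2 fold change -1.19, adjusted p = 0.00502). Between the siRNAs, the main fit called 6, DESeq2 4, the fit of the compared conditions alone 5 and the fit with the correction 8. Fewer than in the main fit were called in some fits that left out a library, fewest of these without the second si-circ235-1 library. With genes summed, 3 of the 5 isotypes outside the sums were called. The TUBB2A and TUBB2B sum passed here too (-1.04, adjusted p = 0.00601). The replicate numbers did not pair the libraries (correlations of deviations -0.09, 0.15 and 0.14), and with the replicate block TUBB6 passed for si-circ235-1 (-0.76, adjusted p = 0.0326), TUBA4A for si-circ235-2 (-0.51, adjusted p = 0.0396) and TUBB3 was lost between the siRNAs (adjusted p = 0.0537). With the correction the direction changed for 2 called values, TBCA (0.38 instead of -0.80) and CNOT9 (-0.02 instead of 0.56) with si-circ235-2. It also changed for values that were not called: TUBA1B (0.15) and TUBB6 (0.20) with si-circ235-2, TUBB2A (0.06) and TUBB4B (0.04) with si-circ235-1, and TUBA1C between the siRNAs (-0.06). Without TMM factors the medians over all genes were -0.11, 0.25 and 0.37 in the 3 comparisons, and TUBA1B (0.20) and TUBB6 (0.01) turned with si-circ235-2. Leaving out a library turned TUBA1A and TUBA1B with si-circ235-2 (ranges -0.14 to 0.14 and -0.17 to 0.10), TUBA1C and TUBB2A with si-circ235-1 (-0.25 to 0.54 and -0.50 to 0.03) and TUBA1C between the siRNAs (-0.03 to 0.76). Genes called in any comparison numbered 1 instead of 3 for other tubulin genes in the fits of compared conditions alone, 6 instead of 3 for destabilization with the replicate block, and 7 instead of 12 for growth and stabilization with the correction. With a library left out they ranged from 2 to 5 for autoregulation, 6 to 7 for chaperonin and prefoldin, 4 to 5 for cofactors, 5 to 9 for modifying enzymes, 7 to 13 for growth and stabilization, 1 to 5 for destabilization and 1 to 2 for other tubulin genes. The TUBB4B share of the summed beta isotypes was 87.5, 90.3 and 83.0% with exon-union lengths. Few counts limit TUBB3 and TUBB2B. The cause of these changes was not tested.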
